A study of Mus musculus with 10 samples.

Results

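The 9 genes described here, Nlrp4a, Nlrp4b, Nlrp4c, Nlrp4e, Nlrp4f, Nlrp9a, Nlrp9b, Nlrp9c and Nlrp14, are the members of the Nlrp4, Nlrp9 and Nlrp14 families that the mouse oocyte expresses. They were taken by symbol from a table of 55487 mouse genes, and all 9 were found in it. Their RNA was measured by RNA-seq in 10 whole ovaries of C57BL/6J mice, of which 4 were Control, 3 Aged and 3 Aged+CF, and each ovary gave its own library. CEFFE is a cell-free liquid extract of fat tissue, and the study asked whether it changes gene expression in the ageing ovary.

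Control mice were 8 weeks old. For the 2 older groups the sample labels give an age of 11 months and the study's methods 10 months. Aged+CF mice received 200 μL of CEFFE at 3 μg/μL through the tail vein every 2 days for 2 weeks, while Control and Aged mice received saline. All 3 groups were primed with 10 IU of PMSG, a gonadotropin that makes follicles grow, 48 h before their ovaries were taken, so every value below is that of a stimulated ovary. Natural ageing was the model and no gene was deleted in any group.

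NLRP proteins carry a nucleotide-binding domain and leucine-rich repeats, and several relatives, NLRP3 among them, assemble inflammasomes in immune cells. In rodents the Nlrp4 and Nlrp9 families grew by gene duplication, and their members are transcribed in the growing oocyte and stored for the embryo. NLRP14 of the egg is needed for development beyond early cleavage, and NLRP4F and the NLRP9 proteins are associated with the subcortical maternal complex, a protein assembly under the membrane of the egg that also holds NLRP5 and is needed by the early embryo.

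On GRCm38, 8 of the 9 genes lie on chromosome 7. Nlrp9c (chr7:26322473-26403700, minus strand), Nlrp4a (chr7:26435113-26476142, plus strand) and Nlrp9a (chr7:26535023-26575615, plus strand) follow each other, and Nlrp4e (chr7:23301192-23362277), Nlrp9b (chr7:19991465-20073306), Nlrp4b (chr7:10687789-10730168) and Nlrp4c (chr7:6045161-6105150), all on the plus strand, lie apart from them. Nlrp14 (chr7:107166990-107198102, plus strand) is far from these, and Nlrp4f (chr13:65177111-65205977, minus strand) is the member on another chromosome. In the annotation Nlrp4b holds an intronic RNA on its own strand, Gm45379, Nlrp9b overlaps the processed pseudogene Gm18877 and the ribosomal RNA gene n-R5s152, and Nlrp4e overlaps the pseudogene Krt8-ps. The other 6 members overlap no annotated gene.

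The start regions are shown to describe their sequence, and a link to the levels in these ovaries was not tested. RefSeq (GRCm38.p6) gave 10 windows of 300 bases, from 250 bases before to 50 after a start, for 8 of the 9 members. The letters CCAAT, searched on both strands, occurred in 7 of the 10 windows, those of 6 members, and in 37.4% of 32851 start windows of all genes. The letters CAGCTG, which read the same on both strands and are a form of the CANNTG motif known as the E-box, occurred in the 7 windows of the 5 Nlrp4 genes, in none of the 3 windows of the Nlrp9 genes, and in 16.3% of all windows. CANNTG of any form occurred in each of the 10 windows and in 72.3% of all windows. These motifs were chosen after the sequences were seen, and a match describes the letters only. The stretches of 5 members that are similar to each other are printed 5′ to 3′ on the strand of the gene, with CCAAT on either strand (ATTGG on the other) and CAGCTG in capitals.
Nlrp4a (chr7:26435534-26435638, plus): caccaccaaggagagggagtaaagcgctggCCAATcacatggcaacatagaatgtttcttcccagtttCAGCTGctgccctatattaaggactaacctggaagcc
Nlrp4b (chr7:10687709-10687813, plus): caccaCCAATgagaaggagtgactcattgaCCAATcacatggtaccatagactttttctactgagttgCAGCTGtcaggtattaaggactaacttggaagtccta
Nlrp4c (chr7:6045113-6045190, plus): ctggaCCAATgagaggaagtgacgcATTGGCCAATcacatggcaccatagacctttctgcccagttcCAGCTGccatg
Nlrp9a (chr7:26534965-26535052, plus): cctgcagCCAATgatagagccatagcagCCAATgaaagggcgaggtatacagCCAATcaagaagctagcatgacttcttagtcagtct
Nlrp9c (chr7:26403703-26403802, minus): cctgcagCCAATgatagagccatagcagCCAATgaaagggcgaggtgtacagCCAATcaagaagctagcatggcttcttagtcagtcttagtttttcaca

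The stretches of Nlrp9a and Nlrp9c were 97.7% identical over 88 aligned bases, and those of Nlrp4a, Nlrp4b and Nlrp4c were 78.4% to 80.8% identical to each other. Nlrp4c, Nlrp9a and Nlrp9c each held the letters CCAAT 3 times in their window, and 3.37% of all windows held them 3 or more times. The windows of Nlrp9b and Nlrp4f held none, and neither did window 1 of Nlrp4a (chr7:26434863-26435162), which spans the start of the gene as given above. The printed stretch of Nlrp4a comes from its window 2 (chr7:26435364-26435663), which lies inside the gene. The window of Nlrp9b (chr7:20007773-20008072) lies inside the gene as given above, so GENCODE and RefSeq place its start differently.

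The coding sequences, between 2589 bases in Nlrp4b and 3012 in Nlrp9a and Nlrp9c, showed the families as separate blocks. Identity was 77.8% to 93.9% between Nlrp4 members, highest for Nlrp4c and Nlrp4e, 82.8% to 87.7% between Nlrp9 members, and 58.2% to 63.1% between members of different families. Because paralogs can share reads, every stretch of 100 bases of each member's transcripts was looked for in the transcripts of all other genes. Such shared stretches made up 11.5% of those of Nlrp4e, nearly all of them shared with unnamed gene models, 2.11% of those of Nlrp9b, under 1% of those of Nlrp4c, Nlrp9a, Nlrp9c and Nlrp4f, and none of those of Nlrp4a, Nlrp4b and Nlrp14. At 50 bases the share rose to 36.7% in Nlrp4e and 10.7% in Nlrp4c and was still 0 in Nlrp4b and Nlrp14. The counts of Nlrp4e are therefore the least certain of the 9, and those of Nlrp14 and Nlrp4b the most certain in this respect.

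**Figure D1:**
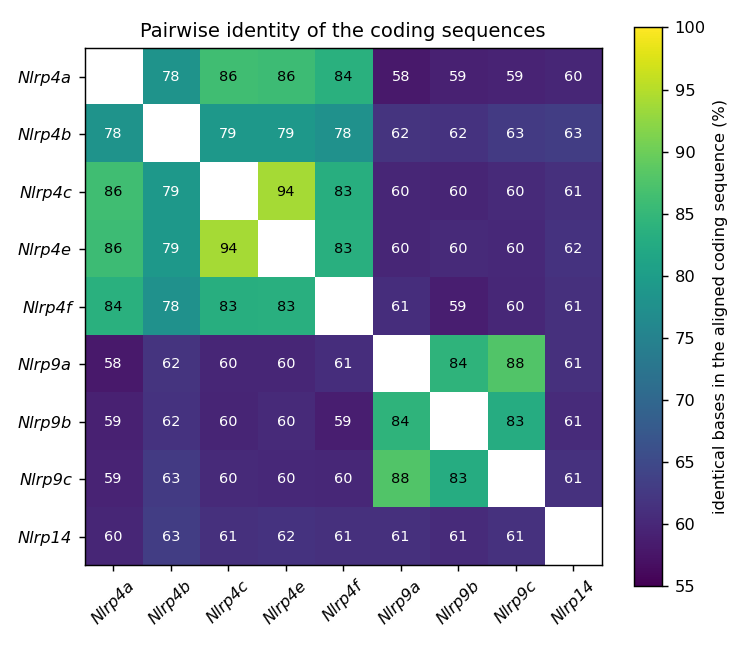
Share of identical bases (%) in pairwise alignments of the coding sequences of the 9 genes, with each pair given above and below the diagonal. The 5 Nlrp4 genes and the 3 Nlrp9 genes form blocks of 77.8% to 93.9% and 82.8% to 87.7%, and Nlrp14 stands apart from both at 59.8% to 63.1%.

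Between 15761789 and 21318254 reads were counted on genes per ovary, and levels are given in CPM, the counts scaled to a common library size by edgeR's TMM method. The labelled tissue was checked by its markers, and transcripts of oocytes, granulosa, luteal, stromal, endothelial and immune cells were all present in every group. Summed over 21 oocyte reference genes such as Gdf9, Bmp15 and Zp3, the oocyte level was 403 to 537 CPM in Control, 12.1 to 130 CPM in Aged and 149 to 236 CPM in Aged+CF. Aged replicate 34 was the ovary with 12.1 CPM and stood apart from the other Aged ovaries. Of the other markers, luteal genes summed to 3140 to 7426 CPM in Control, 10679 to 25148 in Aged and 8226 to 13260 in Aged+CF, and 1 ovary each of Control and Aged held oviduct epithelium genes at 337 and 282 CPM against a group median of 5.83 and 2.68. In whole ovaries, fewer oocytes and less RNA per oocyte cannot be told apart.

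Nlrp14 made up most of the RNA of the 9 genes in every ovary. In FPKM, the deposited values per gene length, its mean level in Control was 24.1 ± 1.75 (SD, n = 4), and Nlrp9b followed at 2.51 ± 0.364, Nlrp4f at 2.40 ± 0.256 and Nlrp4a at 2.40 ± 0.392, the ovaries of these last 3 genes overlapping. Below them came Nlrp4b at 1.16 ± 0.263 and Nlrp9a at 1.15 ± 0.148, which did not differ beyond their spread, then Nlrp9c at 0.857 ± 0.0950, whose ovaries overlapped those of Nlrp9a, Nlrp4e at 0.704 ± 0.0260 and Nlrp4c at 0.247 ± 0.0474. Nlrp14 was again first among the 3 Aged ovaries (3.32 ± 2.67) and among the 3 Aged+CF ovaries (9.91 ± 2.55), and Nlrp4c last in both groups (0.00778 ± 0.0135 and 0.126 ± 0.102). Nlrp14 took 66.5% to 70.6% of the summed FPKM of the 9 genes in Control, 60.6% to 69.8% in Aged and 67.1% to 69.9% in Aged+CF. The Nlrp4 genes together took 17.9% to 20.8% in Control, 15.5% to 26.4% in Aged and at most 19.8% in Aged+CF. The summed FPKM of the 9 genes was 35.5 ± 2.85 FPKM in Control, 5.04 ± 3.94 FPKM in Aged and 14.5 ± 4.02 FPKM in Aged+CF.

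Compared to Control, all 9 genes were lower in Aged, with no overlap between any Aged and any Control ovary. With a change of 1.5-fold or more and an edgeR adjusted p under 0.05 required, 8 of the 9 fell, against 11.1% of the 18956 genes tested called in either direction and 6.06% called lower. Without overlap between the groups and lower were 15.6% of all genes tested. At an unadjusted p under 0.05 all 9 fell, against 9.44% of all genes. The adjusted calls dropped from 8 to 5 when Control replicate 32 or 34 was left out. The median log2 fold change of the 9 was -2.46, a level 5.51-fold lower, with a range from -4.64 for Nlrp4c to -2.23 for Nlrp4e, and the median over all genes tested was 0.00. All 9 passed edgeR's filter on low counts, but in the Aged ovaries alone Nlrp14 would have been the only one to pass it. The other 8 passed through groups where they are higher, which favours a low Aged value. The members were also chosen with earlier results of these data known. The number of members called therefore carries no weight by itself.

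Nlrp14 was at 82.5, 93.3, 85.8 and 98.1 CPM in Control replicates 31, 32, 33 and 34, at 22.7, 17.0 and 1.65 CPM in Aged replicates 31, 33 and 34, and at 37.7, 28.2 and 47.8 CPM in Aged+CF replicates 30, 32 and 34. The groups formed 3 steps that did not overlap, with Control highest and Aged lowest. Nlrp14 fell in Aged compared to Control by 2.71 ± 0.62 (SE) on the log2 scale, or 6.55-fold (edgeR adjusted p = 0.0199). Without Aged replicate 34 it fell by 2.14 (edgeR adjusted p = 0.00143).

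Nlrp4f, whose protein is found with the maternal complex of the egg, had the highest counts after Nlrp14. Its counts were 281, 318, 296 and 332 in the Control ovaries, 67, 71 and 8 in the Aged ovaries and 137, 94 and 210 in the Aged+CF ovaries, each in the order of replicates given above. The lowest Aged+CF ovary, replicate 32 with 5.40 CPM, lay just above the highest Aged ovary, replicate 33 with 5.01 CPM. In Aged, Nlrp4f fell by 2.46 ± 0.57 on the log2 scale, or 5.51-fold (edgeR adjusted p = 0.0206).

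Nlrp4a was at 11.3, 12.5, 9.74 and 14.6 CPM in Control, 2.86, 3.81 and 0.110 CPM in Aged, and 4.70, 3.79 and 5.91 CPM in Aged+CF. Nlrp4b was at 7.06, 10.5, 6.03 and 8.22 CPM in Control, 1.19, 1.90 and 0.110 CPM in Aged, and 3.67, 2.01 and 4.31 CPM in Aged+CF. For Nlrp4a the Aged and Aged+CF ovaries overlapped, and for Nlrp4b they came close without overlap. Nlrp4a fell 5.38-fold (log2 fold change -2.43 ± 0.68, edgeR adjusted p = 0.0389) and Nlrp4b 7.55-fold (log2 fold change -2.92 ± 0.63, edgeR adjusted p = 0.0166) in Aged compared to Control. The adjusted call of Nlrp4a was lost in 8 of the 10 fits that left out an ovary (edgeR adjusted p from 0.0569 to 0.0900) and held without Aged replicate 33 or 34. It was also lost without the filter on low counts (edgeR adjusted p = 0.0545) and with only the compared groups in the fit (edgeR adjusted p = 0.0849).

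Nlrp4c had the fewest reads. The Control ovaries had 24, 22, 20 and 18 counts, the Aged ovaries 2, 0 and 0, and the Aged+CF ovaries 9, 3 and 25. A count of 0 allows up to 3 counts, which is 0.165 to 0.212 CPM in the Aged ovaries, so the Aged level was at or under what this depth can show. Over the summed counts scaled by library size, the Control level was 28.7 times that of Aged, with a 95% interval from 7.71 to 241 that covers counting error only. The edgeR test called the fall (adjusted p = 0.0119), and its fitted log2 fold change of -4.64 ± 0.90 depends on the prior count that the fit adds to the counts. With Nlrp4c set to the lower limit of its counting interval, the median over the 9 genes was the same.

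Nlrp4e, whose knockdown in the fertilized egg is known to halt early cleavage, was the most even of the 9 among Control ovaries, with a coefficient of variation of 4.09%. It stood at 2.57, 2.74, 2.64 and 2.49 CPM in Control, 0.775, 0.917 and 0 CPM in Aged, and 0.917, 0.402 and 1.22 CPM in Aged+CF. The Aged and Aged+CF ovaries of this gene were mixed, and both lay below all Control ovaries. Its log2 fold change in Aged compared to Control was -2.23 ± 0.73, with an edgeR adjusted p of 0.0643 and an unadjusted p of 0.0119. Without Aged replicate 34, the ovary with no read of the gene, it was -1.58 with an edgeR adjusted p of 0.0205.

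Of the Nlrp9 genes, Nlrp9b is also known from the intestine, where it takes part in the defence against rotavirus. Nlrp9b was at 12.5, 12.9, 10.4 and 15.1 CPM in Control, 2.74, 2.05 and 0.165 CPM in Aged, and 4.53, 3.16 and 7.83 CPM in Aged+CF. Nlrp9a was at 5.37, 5.55, 4.16 and 5.73 CPM in Control, 1.31, 1.69 and 0.221 CPM in Aged, and 2.35, 1.95 and 2.77 CPM in Aged+CF. For both genes the 3 groups did not overlap and Aged+CF lay between the others. Nlrp9c was at 5.19, 6.48, 4.92 and 5.62 CPM in Control, 1.73, 1.34 and 0.110 CPM in Aged, and 2.12, 1.61 and 2.39 CPM in Aged+CF, where replicate 32 was below the highest Aged ovary. In Aged compared to Control, Nlrp9b fell 7.76-fold (log2 fold change -2.96 ± 0.64, edgeR adjusted p = 0.0164), Nlrp9a 4.88-fold (-2.29 ± 0.49, edgeR adjusted p = 0.0165) and Nlrp9c 5.27-fold (-2.40 ± 0.58, edgeR adjusted p = 0.0239).

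**Figure D2:**
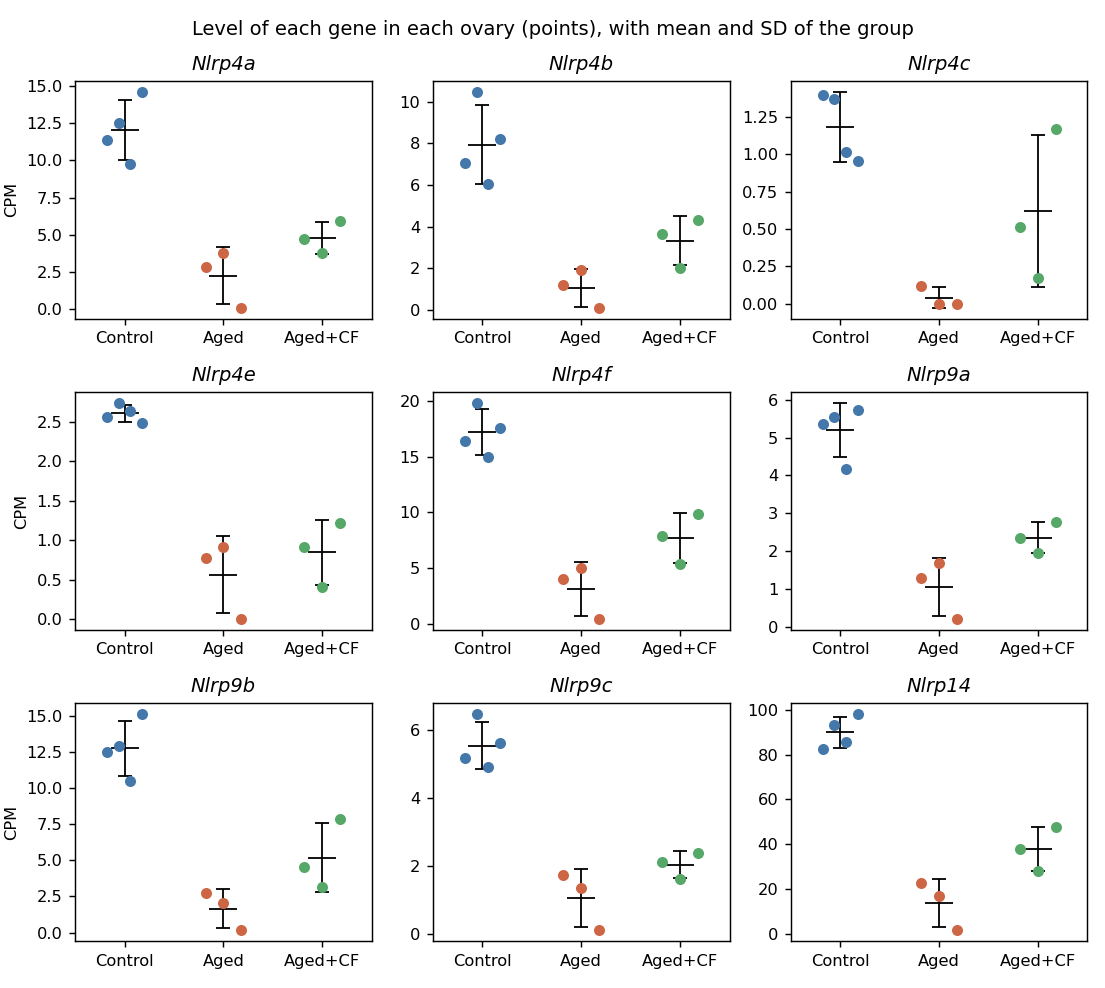
Level of each of the 9 genes in CPM (vertical axes, scaled for each gene) in the 4 Control, 3 Aged and 3 Aged+CF ovaries, drawn as points with the mean and SD of the group. All Aged ovaries lie below all Control ovaries in each panel, and Aged replicate 34 is the lowest or, for Nlrp4c, shares the lowest value of 0.

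The 9 genes were also set against the mean of the Control ovaries. The median over the genes was 23.8% in Aged replicate 31, 24.1% in replicate 33 and 1.39% in replicate 34, and it was 41.9%, 29.0% and 53.2% in Aged+CF replicates 30, 32 and 34. The Control ovaries had medians from 85.6% to 107%. Within an ovary the genes spread from 10.1% to 31.1% in Aged replicate 31, from 0% to 35.1% in Aged replicate 33, from 35.1% to 46.2%, from 14.5% to 37.6% and from 43.0% to 98.9% in Aged+CF replicates 30, 32 and 34. Nlrp4c was at an end of this range in all of these ovaries but Aged+CF replicate 30. Within Aged replicate 34 the genes ran from 0% for Nlrp4c to 4.24% for Nlrp9a. In counts, Nlrp14 had 30 reads in this ovary, Nlrp4f 8 and the other 7 genes between 0 and 4. Without it all 9 genes fell in Aged at an edgeR adjusted p under 0.05, against 16.1% of all genes called in either direction, with log2 fold changes from -4.03 to -1.58.

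**Figure D3:**
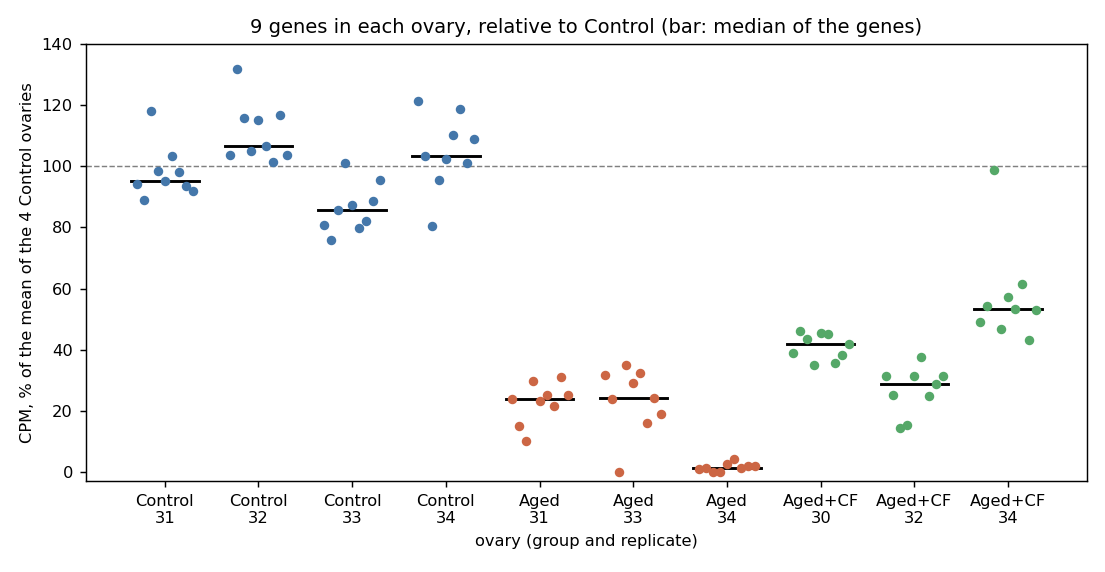
CPM of the 9 genes in each ovary as a percent of the mean of the 4 Control ovaries (a point for each gene), with the median of the genes as a bar. Aged replicates 31 and 33 sit near 24%, Aged replicate 34 at 1.39%, and the Aged+CF ovaries at 29.0% to 53.2%.

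Compared to Aged, all 9 genes were higher in Aged+CF, but none passed the adjusted test. The edgeR adjusted p ran from 0.169 for Nlrp4c to 0.713 for Nlrp4e, in a comparison in which 0.00528% of all genes tested were called. With an unadjusted p under 0.05 and the same minimum fold, 6 of the 9 rose (Nlrp4b, Nlrp4c, Nlrp4f, Nlrp9a, Nlrp9b and Nlrp14), against 7.96% of all genes called in either direction and 3.91% called higher. The same 6 were higher without overlap between the groups, as were 10.2% of all genes tested. The median log2 fold change of the 9 was 1.31, or 2.47-fold, and over all genes tested it was -0.02. This comparison uses the same Aged ovaries as that of Aged with Control, so a low Aged value enters both. Of the 6, only Nlrp14 would have passed the filter on low counts in the Aged ovaries alone. Passing through the other groups favours a higher value in Aged+CF than in Aged. The number of members called here therefore carries no weight by itself.

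Nlrp14 was 2.76-fold higher in Aged+CF than in Aged (log2 fold change 1.46 ± 0.62, with an edgeR adjusted p of 0.286 and an unadjusted p of 0.0402). Nlrp9b and Nlrp4b were 3.16-fold and 3.18-fold higher, with unadjusted edgeR p of 0.0276 and 0.0271, and Nlrp4f and Nlrp9a were 2.47-fold and 2.22-fold higher with p of 0.0487 and 0.0483, just under the threshold. For Nlrp4c the summed counts were 16.2 times those of Aged (95% counting interval 4.17 to 138), of 37 reads against 2, and 25 of the 37 came from Aged+CF replicate 34. Nlrp4a, Nlrp9c and Nlrp4e did not pass the test, with log2 fold changes of 1.11, 0.96 and 0.63 and 95% intervals from -0.44 to 2.65, from -0.38 to 2.30 and from -1.11 to 2.36.

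The rise depended on which ovaries were used. Without Aged replicate 34 the difference for Nlrp14 was smaller, at 0.92 on the log2 scale, and passed the adjusted test (edgeR adjusted p = 0.0488), as the only one of the 9 and against 2.87% of all genes. That of Nlrp4e went to 0.00 without this ovary, and the other 7 stayed higher by 0.39 to 3.16. Without Aged+CF replicate 34, the ovary with the highest level of all 9 genes in its group, 1 of the 9 was called at an unadjusted p, and without Aged+CF replicate 30 it was 2. Without Aged replicate 31, or without any single Control ovary, 3 of the 9 were called.

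Compared to Control, all 9 genes were lower in Aged+CF, and none passed the adjusted test (edgeR adjusted p from 0.279 to 0.520), in a comparison in which 0.179% of all genes were called. At an unadjusted p, 4 of the 9 were lower (Nlrp4e, Nlrp9a, Nlrp9b and Nlrp9c), against 7.69% of all genes in either direction and 4.36% lower. All but Nlrp4c were lower in Aged+CF without overlap with the Control ovaries, as were 12.2% of all genes tested. The median log2 fold change of the 9 was -1.25, or 2.38-fold lower, and -0.03 over all genes. Nlrp14 had a log2 fold change of -1.25 ± 0.58, with an edgeR adjusted p of 0.364 and an unadjusted p of 0.0563. Leaving out an ovary at a time gave between 0 calls, without Control replicate 32 or Aged+CF replicate 30 or 32, and 8, without Aged replicate 34. Without Aged replicate 34, which enters through the shared estimate of the spread, 6 of the 9 were lower at an edgeR adjusted p under 0.05, against 1.80% of all genes called.

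**Figure D4:**
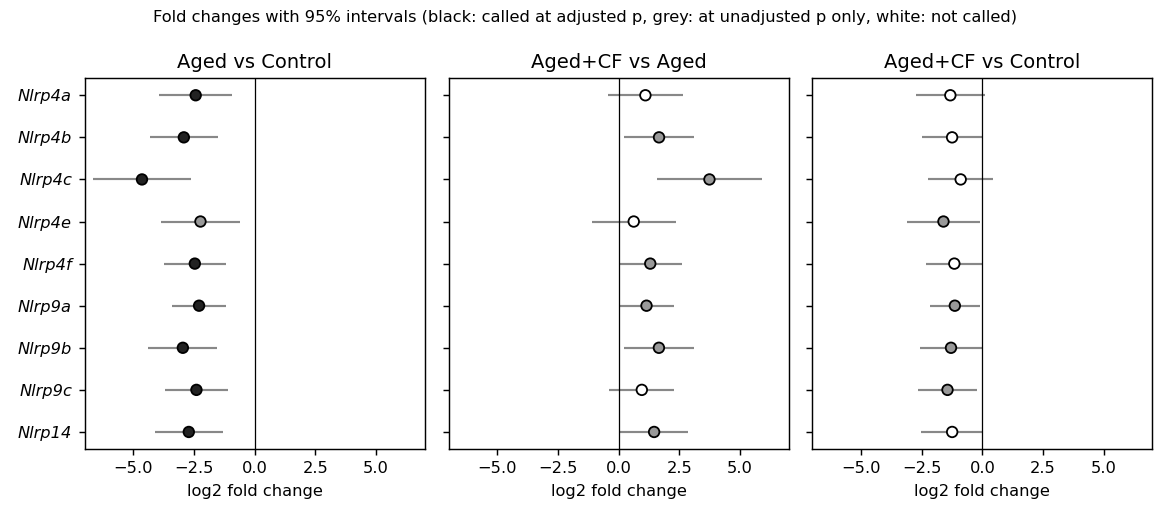
Log2 fold changes of the 9 genes in the 3 comparisons (points) with 95% intervals of the edgeR fit (lines), black where called at the adjusted p, grey where called at the unadjusted p only and white where not called. The left panel has 8 black genes and 1 grey one, the middle panel 6 grey ones and the right panel 4.

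The members were then set against other transcripts of the oocyte. Of the 21 oocyte reference genes, 14 fell in Aged compared to Control at the adjusted p and all 21 at the unadjusted p. Their median log2 fold change was -2.36. Of all genes tested, 6.06% were called lower at the adjusted p and 9.44% at the unadjusted p. In Aged+CF compared to Aged, 5 of the 21 rose at the unadjusted p (Sohlh1, Lhx8, Zp1, Dazl and Btg4), against 3.91% of all genes. The median over the list was 0.96. In Aged+CF compared to Control 12 fell at the unadjusted p, against 4.36% of all genes, with a median of -1.31. All 21 reference genes had the same sign as the 9 members in each comparison.

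Per 1000 counts of the 21 reference genes of the same ovary, the 9 members together had 307 to 351 counts in Control, 328, 259 and 233 in Aged replicates 31, 33 and 34, and 356, 313 and 352 in Aged+CF replicates 30, 32 and 34. The 3 groups overlapped on this scale. Nlrp14 had 174 to 213 in the Control ovaries, 199, 131 and 137 in the Aged ovaries and 209, 189 and 202 in the Aged+CF ovaries. With library sizes replaced by the reference counts, the edgeR fit called none of the 9 at an unadjusted p in any of the 3 comparisons, although 96.2% of all genes were called when Aged was compared to Control, 86.6% when Aged+CF was compared to Aged and 9.82% when it was compared to Control. The intervals of that fit were wide, for Nlrp14 from -2.10 to 1.49 on the log2 scale in Aged vs Control around -0.30 and from -1.55 to 2.27 in Aged+CF vs Aged around 0.36, and differences within them were not detectable on this scale.

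Nlrp4b and Nlrp4c were the members whose ratio to the oocyte reference genes was lower in Aged than in Control without overlap. Per 1000 reference counts, Nlrp4b had 17.2, 19.5, 15.0 and 15.3 counts in the Control ovaries, 10.5, 14.6 and 9.13 in the Aged ovaries, and 20.3, 13.5 and 18.2 in the Aged+CF ovaries. Nlrp4c had 3.40, 2.55, 2.52 and 1.78 in the Control ovaries, 1.05, 0 and 0 in the Aged ovaries, and 2.86, 1.15 and 4.96 in the Aged+CF ovaries. This separation by itself fixes the exact permutation p at 0.0286, the smallest that 4 against 3 ovaries allow, so that p adds no support to it. It was computed after the data were seen, as 1 of 27 such p-values that were not adjusted. The Nlrp4c ratios in Aged rest on 2 reads in all. Nlrp9b had a mean of 17.8 in Aged and 27.1 in Control per 1000 reference counts. Its groups overlapped narrowly, with 24.06 in Aged replicate 31 and 24.03 in Control replicate 32.

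**Figure D5:**
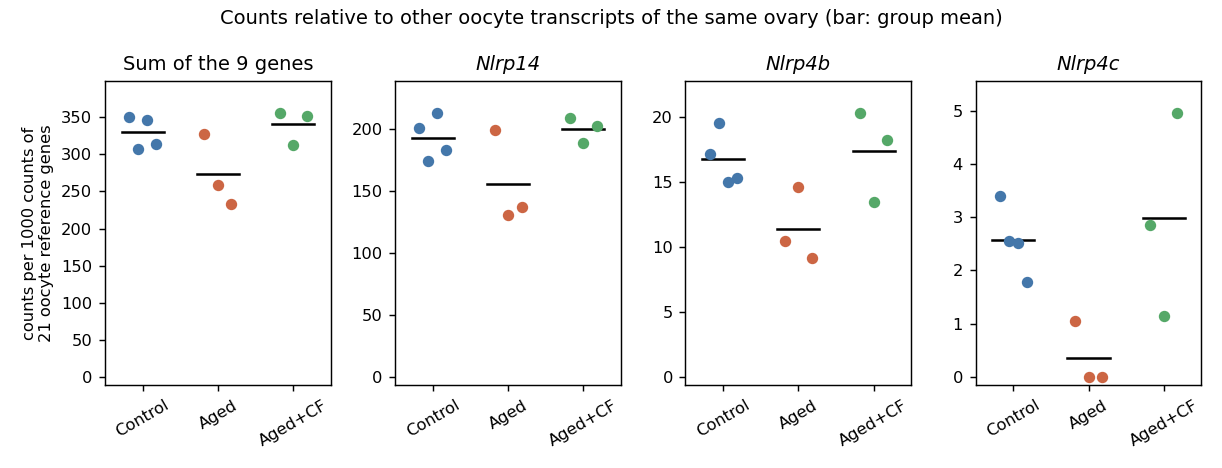
Counts of the 9 genes together and of Nlrp14, Nlrp4b and Nlrp4c per 1000 counts of the 21 oocyte reference genes of the same ovary (vertical axes from 0), with the group mean as a bar. Control, Aged and Aged+CF overlap for the sum and for Nlrp14, while all Aged ovaries lie below all Control ovaries for Nlrp4b and Nlrp4c.

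Genes of the subcortical maternal complex and of the methylation machinery linked to NLRP14 moved in the same direction. Of 9 genes (Nlrp5, Nlrp2, Ooep, Tle6, Khdc3, Padi6, Zbed3, Uhrf1 and Dnmt1), 7 fell in Aged compared to Control at the adjusted p, 8 at the unadjusted p, with a median log2 fold change of -2.08. Nlrp5 and Nlrp2, the closest relatives of the members in this list, were 7.83-fold and 8.52-fold lower, and Padi6, an enzyme-like component of the oocyte's lattices, 7.80-fold. Uhrf1, whose protein guides maintenance of DNA methylation, was 4.22-fold lower and Dnmt1, the maintenance methyltransferase, 2.24-fold lower. Both are also used by dividing somatic cells. Tle6 and Khdc3 were 1.50-fold and 2.45-fold lower and not called (edgeR adjusted p = 0.124 and 0.196). For Khdc3 the Aged and Control ovaries overlapped. In Aged+CF compared to Aged, 6 of the 9 rose at the unadjusted p (Nlrp5, Nlrp2, Ooep, Padi6, Uhrf1 and Dnmt1), against 3.91% of all genes. None rose at the adjusted p. Nlrp5 was 2.90-fold and Uhrf1 2.15-fold higher, Tle6 was 1.04-fold and Khdc3 1.29-fold higher, and the median log2 fold change was 0.98. In Aged+CF compared to Control, 5 fell at the unadjusted p, against 4.36% of all genes, with a median of -0.97.

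NLR genes and inflammasome parts of immune and other somatic cells were mostly higher in Aged than in Control. Of 22 such genes 20 were tested, and 7 rose at the adjusted p (Nlrc3, Naip2, Nod1, Casp1, Casp4, Il1b and Il18), against 5% of all genes tested called higher, and 1 fell, Nlrp10, with a median log2 fold change of 0.61. Il1b, the cytokine that inflammasomes release in mature form, was 8.40-fold higher, and Casp1, the protease that matures it, 2.52-fold higher. Il1b had 0 to 7 counts in the Control ovaries and 19 to 41 in the Aged ovaries, so its fold rests on a Control level near the floor. Nlrp3, the sensor, had a log2 fold change of 0.62 ± 0.56 and did not pass the test. In Aged+CF compared to Aged, Nlrp10 rose and Nlrp6 fell at the unadjusted p, with log2 fold changes of 1.59 and -1.80. This was 1 gene in each direction of the 20, against 7.96% of all genes called in either direction. Nlrp6 had 9 to 26 counts in the Aged ovaries and 1 to 7 in the Aged+CF ovaries. None of the 20 passed the adjusted test in this comparison. There 16 of the 20 were lower, with a median log2 fold change of -0.36 over the list. Macrophage markers summed to 168 to 186 CPM in Control, 215 to 374 CPM in Aged and 213 to 275 CPM in Aged+CF. B and plasma cell markers summed to 2.54 to 3.65 CPM in Control, 5.64 to 174 CPM in Aged and 3.56 to 6.49 CPM in Aged+CF. In Aged compared to Control 3 of their 4 genes rose at the adjusted p, against 5% of all genes. In Aged+CF compared to Aged all 4 fell at the unadjusted p, against 7.96% of all genes called in either direction. The part of these cells in the differences was not tested.

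Across the 10 ovaries the log2 CPM of the members rose and fell together, with Pearson correlations over 36 pairs from 0.788 for Nlrp4a with Nlrp4c to 0.995 and a median of 0.980. These describe 10 ovaries of 3 groups that share their libraries and their oocyte content. Of 16736 genes at a mean of at least 1 CPM, the most like the mean of the 9 members were Slc30a3, a zinc transporter (r = 0.998), Espl1, the separase that frees sister chromatids (r = 0.997), and Khdc1a, Klf17 and Khdc1b (r from 0.995 to 0.996). The most like Nlrp14 were Khdc1b (r = 0.999) and the zona pellucida genes Zp1 (r = 0.998) and Zp3 (r = 0.997). Khdc1b was at a mean of 43.9 CPM in Control, 6.27 CPM in Aged and 16.7 CPM in Aged+CF.

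The neighbours of the members on the chromosome were examined as well. Of 33 protein-coding genes within 100 kb of a member, 18 were vomeronasal or olfactory receptor genes, and 9 of the 33 passed the filter on low counts. Of the 5 with the highest mean, Mfsd14b near Nlrp4f, Zfp787 and Zfp444 near Nlrp4c and Pvr near Nlrp9b were not called in Aged compared to Control, with log2 fold changes of 0.28, -0.22, -0.24 and 0.25. The fifth was Nlrp5 near Nlrp4e, the maternal complex gene, which fell. Of the 9, 4 fell at the adjusted p against 6.06% of all genes, namely Nlrp5 and, named after their values were seen, Igsf23 and Ceacam20 near Nlrp9b and Rbmxl2 near Nlrp14. Igsf23, Ceacam20 and Rbmxl2 were at means of 1.50, 0.634 and 0.624 CPM in Control and 0.332, 0 and 0.0802 CPM in Aged. Ceacam20 had no read in any Aged ovary. Genes this low can pass the filter through the Control ovaries alone, which favours a low Aged value. The number of neighbours called therefore carries no weight by itself. In Aged+CF compared to Aged, 3 of the 9 rose at the unadjusted p (Nlrp5, Igsf23 and Ceacam20), against 3.91% of all genes, and none fell.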

How the data were processed

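RNA-seq libraries of 10 mouse ovaries were used, each from a different animal as far as the labels show, in the groups that the labels give. The authors deposited raw counts of reads per gene and FPKM values. The submitters' processing notes name TopHat, Cufflinks 2.1.1 and GRCm38.p4, while the counting tool, the annotation, the use of strand and the treatment of reads that match several genes are not given in the sources used here. The study's methods name a NovaSeq instrument and its series text a HiSeq. The deposited FPKM equals the count over a fixed gene length and the column total.

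Tests on the counts were run with edgeR 4.0 (R 4.3). Of 55487 genes, 18869 had no count, and 18956 passed edgeR's filter on low counts. Libraries were scaled by TMM, and the 3 group means were fitted to all 10 ovaries by quasi-likelihood. Calls required a change of 1.5-fold or more and a p under 0.05, adjusted by the Benjamini-Hochberg method over all genes tested, as in the study's methods, or unadjusted, as in its results. Intervals are 95% intervals. CPM are relative to the TMM library size. A gene with at most 3 counts in each ovary of a group was taken to be at the floor of the depth.

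The members and the gene lists were chosen with earlier results of these data known. The genes named are the 9 members, the genes of the oocyte reference, maternal complex and NLR lists, the 5 genes most like the mean of the members and the 3 most like Nlrp14, and up to 5 protein-coding neighbours within 100 kb by mean CPM. Positions come from GENCODE M21 on GRCm38, and start windows from RefSeq. Coding sequences were aligned in pairs from end to end (global alignment). The fit was tested on simulated data. No pair of libraries in a group was a duplicate. Alternatives were no filter, DESeq2's size factors, total count scaling, a block for the replicate number, DESeq2 1.42 with its Wald test, only the compared groups in the fit, size factors over the oocyte reference genes, and leaving out each ovary.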

Additional observations from a re-analysis of the deposited data

How the results depend on the processing

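On the scale of the whole library, the sign of all 9 genes was the same in each of the 3 comparisons under every alternative, although Nlrp4e in Aged+CF vs Aged came to 0.00 without Aged replicate 34. Relative to the oocyte reference genes the signs were mixed, and none of these differences was called. Nlrp9a was higher in Aged than in Control by 0.32 on the log2 scale. In Aged+CF vs Aged, Nlrp4e, Nlrp9a and Nlrp9c had log2 fold changes of -0.35, -0.13 and -0.12. In Aged+CF vs Control, Nlrp4b, Nlrp4c, Nlrp4f, Nlrp9a and Nlrp14 were higher, by 0.05 to 0.25. In Aged vs Control 9 were called at the unadjusted p under each alternative. At the adjusted p, 8 were called, 6 to 9 under the other settings and 5 to 9 leaving out an ovary (5 without Control replicate 32 or 34, 9 without Aged replicate 34). With the replicate number as a block none was called at the adjusted p in any comparison, and at the unadjusted p 9 were called for Aged against Control, 1 for Aged+CF against Aged and 0 for Aged+CF against Control. Deviations of ovaries with the same number correlated between -0.185 and 0.153. Ovaries with different numbers were not compared in this way, so these values do not settle whether the numbers pair the ovaries. In Aged+CF vs Aged, 6 were called at the unadjusted p, 0 of the 8 tested with only these groups in the fit, and 1 to 6 leaving out an ovary, and 0 to 1 at the adjusted p, the 1 without Aged replicate 34. In Aged+CF vs Control, 4 were called at the unadjusted p, 7 without a filter or with total count scaling, 8 with DESeq2 or with only these groups, and 0 to 8 leaving out an ovary. At the adjusted p there were 0, 6 with only these groups, and 0 to 6 leaving out an ovary. Relative to the oocyte reference genes there were 0 in each comparison, with 2 by the exact permutation of the ratios, added after seeing the data, in Aged vs Control, 1 with size factors in Aged+CF vs Aged, and 0 to 1 leaving out an ovary in these comparisons. The cause of these changes was not tested, and the fits of only 2 groups use fewer ovaries. Over all genes the adjusted calls, 2096, 1 and 34, became 80, 0 and 9 with the block, 2761, 442 and 528 with DESeq2, 1440, 2 and 487 with only the compared groups, and 1081 to 3112, 1 to 556 and 7 to 348 leaving out an ovary. At 0 to 54 counts per Aged ovary, Nlrp4a, Nlrp4b, Nlrp4c, Nlrp4e, Nlrp9a, Nlrp9b and Nlrp9c are limited by depth.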

Other observations

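Other relatives of the 9 genes were named after their values were seen. Nlrp4g, on chromosome 9, is annotated as a transcribed pseudogene of the Nlrp4 family and had 52, 35, 51 and 47 counts in Control, 25, 26 and 0 in the Aged ovaries, and 34, 24 and 77 in the Aged+CF ovaries. Its Aged ovaries lay below its Control ovaries, and its log2 fold change of -1.23 did not pass the test (edgeR adjusted p = 0.317). The Aged+CF ovaries ran from below the lowest to above the highest Control ovary. At 100 bases none of its stretches was shared with another gene, and at 50 bases 8.49% were, mostly with Nlrp4f. Nlrp4d, an Nlrp4 pseudogene on chromosome 7, had no count in any of the 10 ovaries.

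The pseudogene Nlrp5-ps had 60, 47, 47 and 59 counts in Control, 34, 19 and 62 in the Aged ovaries and 36, 45 and 44 in the Aged+CF ovaries, with its highest count in Aged replicate 34, the ovary in which Nlrp5 had 17 counts against 888 to 1401 in Control.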
